A study of Mus musculus with 18 samples.

Results

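A set of 10 growth factor receptor genes was followed in a mouse glioma line: Egfr, Erbb3, Pdgfra, Fgfr1, Fgfr2, Fgfr3, Ngfr, Ntrk2, Gfra2 and Met, which are 10 of the 48795 genes in the deposited table. They were chosen by name with earlier values of these libraries known, and Ngfr, Fgfr3 and Gfra2 were selected on their lower level in tumour cells grown in mice than in culture. The differences from culture are therefore given as a description, with no test. The stated choice did not use the remaining comparisons, between hosts and between sorted fractions, and these were tested across all genes. Since earlier values were known, it is not established that those tests are free of the choice.

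The cells were GL261 GFP, a C57BL/6-derived mouse glioma line that carries a green fluorescent protein. They were injected into Pfp/Rag2-/- mice, which lack perforin and RAG2 and so have no mature T or B cells and poor killing by natural killer cells, or into C57BL/6 wild-type (WT) mice, with 6 mice of each genotype. Tumours were taken when the mice had symptoms and were dissociated with 1.5 mg/mL collagenase. Sequencing libraries of polyadenylated RNA fell into 6 groups of 3: GFP+ cells sorted from Pfp/Rag2-/- tumours, GFP+ cells sorted from WT tumours, unsorted cells of Pfp/Rag2-/- tumours, unsorted cells of WT tumours, GFP- cells sorted from WT tumours, and the cultured GL261 cells used for injection. The labels call them triplicates without saying whether a library was 1 mouse or a pool, so p-values measure the spread between these libraries. The sources used here give no ages. A single transplanted line models only the receptors that line carries, and WT hosts keep the T and B cells that Pfp/Rag2-/- hosts lack.

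Each library held between 19172814 and 21141662 reads assigned to genes, and a level below is a normalized count, the read count divided by a size factor per library. One read was worth 0.871 to 1.54 normalized counts. Reads of Prf1, which encodes perforin, numbered 8, 15 and 18 in the unsorted libraries of Pfp/Rag2-/- tumours, against 118, 110 and 160 in those of WT tumours. In GFP+ cells it had 128, 6 and 1 reads from Pfp/Rag2-/- tumours, against 123, 5 and 11 reads from WT tumours. Rag2 reads numbered 5, 7 and 4 in unsorted libraries of Pfp/Rag2-/- hosts and 5, 0 and 0 in their GFP+ libraries, against 0 in every WT library. Reads were summed over whole genes, so those from undeleted parts of either gene are included and neither gene checks the host label fully. In GFP+ library 1 labelled Pfp/Rag2-/-, 5 natural killer cell markers summed to 669 normalized counts, against 26.6 and 11.97 in libraries 2 and 3. WT GFP+ library 1 was also the highest of its group, at 132, against 8.55 and 12.9, and its 8 T cell markers summed to 673, against 320.2 and 347. Among WT GFP+ libraries, number 3 stood apart for several receptors, and results that turn on it are given with and without it.

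All of these genes but Ngfr and Gfra2 encode receptor tyrosine kinases: a ligand joins receptor molecules in pairs, the kinase domains phosphorylate each other, and the signal runs through RAS and ERK, PI3 kinase and AKT. EGFR binds EGF, TGF-alpha and related ligands. ERBB3 binds neuregulins and signals mainly through partners such as ERBB2. PDGFRA is the receptor of oligodendrocyte precursors for PDGF, and FGFR1, FGFR2 and FGFR3 bind fibroblast growth factors. NTRK2 (TrkB) binds BDNF, while NGFR (p75) binds all neurotrophins without a kinase domain. GFRA2 is tethered to the outer membrane, binds neurturin and signals through RET. MET is the receptor of hepatocyte growth factor (HGF). In normal brain, Fgfr3, Ntrk2 and Egfr are well known in astrocytes, Pdgfra in oligodendrocyte precursors and Erbb3 in the oligodendrocyte and Schwann cell lineages.

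Promoter sequences are shown for a pair of receptors that were high in culture (Ngfr, Fgfr3) and a pair that had almost no reads there (Egfr, Ntrk2), since these pairs lie at opposite ends of the pattern described below. Each is the RefSeq sequence of GRCm38.p6 in the direction of transcription, from 250 to 51 bases before the annotated start, and capitals mark GC boxes (GGGCGG, on either strand). Ngfr lies at chr11:95587749-95587948 (minus strand), Fgfr3 at chr5:33721474-33721673 (plus strand), Egfr at chr11:16751953-16752152 (plus strand) and Ntrk2 at chr13:58806319-58806518 (plus strand).
Ngfr: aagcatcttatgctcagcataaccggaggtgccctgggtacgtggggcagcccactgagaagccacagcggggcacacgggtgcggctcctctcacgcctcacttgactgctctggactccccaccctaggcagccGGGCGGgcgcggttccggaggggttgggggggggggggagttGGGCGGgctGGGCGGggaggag
Fgfr3: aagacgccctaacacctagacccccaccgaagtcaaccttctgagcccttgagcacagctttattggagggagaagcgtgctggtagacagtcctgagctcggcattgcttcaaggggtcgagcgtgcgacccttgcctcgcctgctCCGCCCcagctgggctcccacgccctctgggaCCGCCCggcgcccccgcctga
Egfr: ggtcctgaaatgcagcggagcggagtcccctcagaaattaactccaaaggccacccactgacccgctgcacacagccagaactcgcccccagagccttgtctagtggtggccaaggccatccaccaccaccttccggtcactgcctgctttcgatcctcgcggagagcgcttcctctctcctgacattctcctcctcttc
Ntrk2: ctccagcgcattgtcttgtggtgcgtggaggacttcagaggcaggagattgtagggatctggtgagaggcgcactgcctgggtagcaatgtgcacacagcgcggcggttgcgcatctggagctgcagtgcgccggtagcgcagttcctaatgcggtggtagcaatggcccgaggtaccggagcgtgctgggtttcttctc

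The Ngfr window held 3 GC boxes and 13 CG dinucleotides, and the Fgfr3 window shown held 2 GC boxes and 14 CG dinucleotides. Fgfr3 has a second annotated start, whose window (chr5:33722056-33722255, not shown) held 2 GC boxes and 20 CG dinucleotides. The Egfr window had 0 GC boxes with 9 CG dinucleotides, and that of Ntrk2 had 0 with 14. A GC box occurred in 24.6% of the 32851 windows of the same length in the table, and the median number of CG dinucleotides was 4. Promoters of 7 of the 10 genes were matched (all but Erbb3, Fgfr1 and Gfra2). Met held 2 GC boxes, while Pdgfra and Fgfr2 held 0. Searched on both strands, a TATA box (TATAAA, in 9.14% of all windows) and an EGR1 site (GCGTGGGCG, in 0.353%) were in 0 of these 7 genes' windows. The letters of an EGR1 site can overlap those of a GC box. These are matches of letters and say nothing about binding.

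In GENCODE M21 (GRCm38) all 10 genes are protein coding. The ERBB family gene Egfr (ENSMUSG00000020122) lies at chr11:16752203-16918158 and Erbb3 (ENSMUSG00000018166) at chr10:128567523-128589652. Pdgfra (ENSMUSG00000029231) lies at chr5:75152292-75198215 and Met (ENSMUSG00000009376) at chr6:17463800-17573980. Fgfr1 (ENSMUSG00000031565) lies at chr8:25513654-25575718, Fgfr2 (ENSMUSG00000030849) at chr7:130162451-133123350 and Fgfr3 (ENSMUSG00000054252) at chr5:33721674-33737068. The GENCODE span of Fgfr2 (minus strand) runs far upstream of its RefSeq promoter window at chr7:130266859-130267058. Ngfr (ENSMUSG00000000120) lies at chr11:95568818-95587735, Ntrk2 (ENSMUSG00000055254) at chr13:58806569-59133970 and Gfra2 (ENSMUSG00000022103) at chr14:70890120-70979838. Exons of Pdgfra, Fgfr1 and Fgfr3 share bases with an annotated gene on the opposite strand, and exons of Pdgfra and Fgfr2 with a gene on the same strand (Mir7025 and Ctbp2). Use of strand in counting is not given in the sources used here, so reads of those stretches are uncertain.

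**Figure D1:**
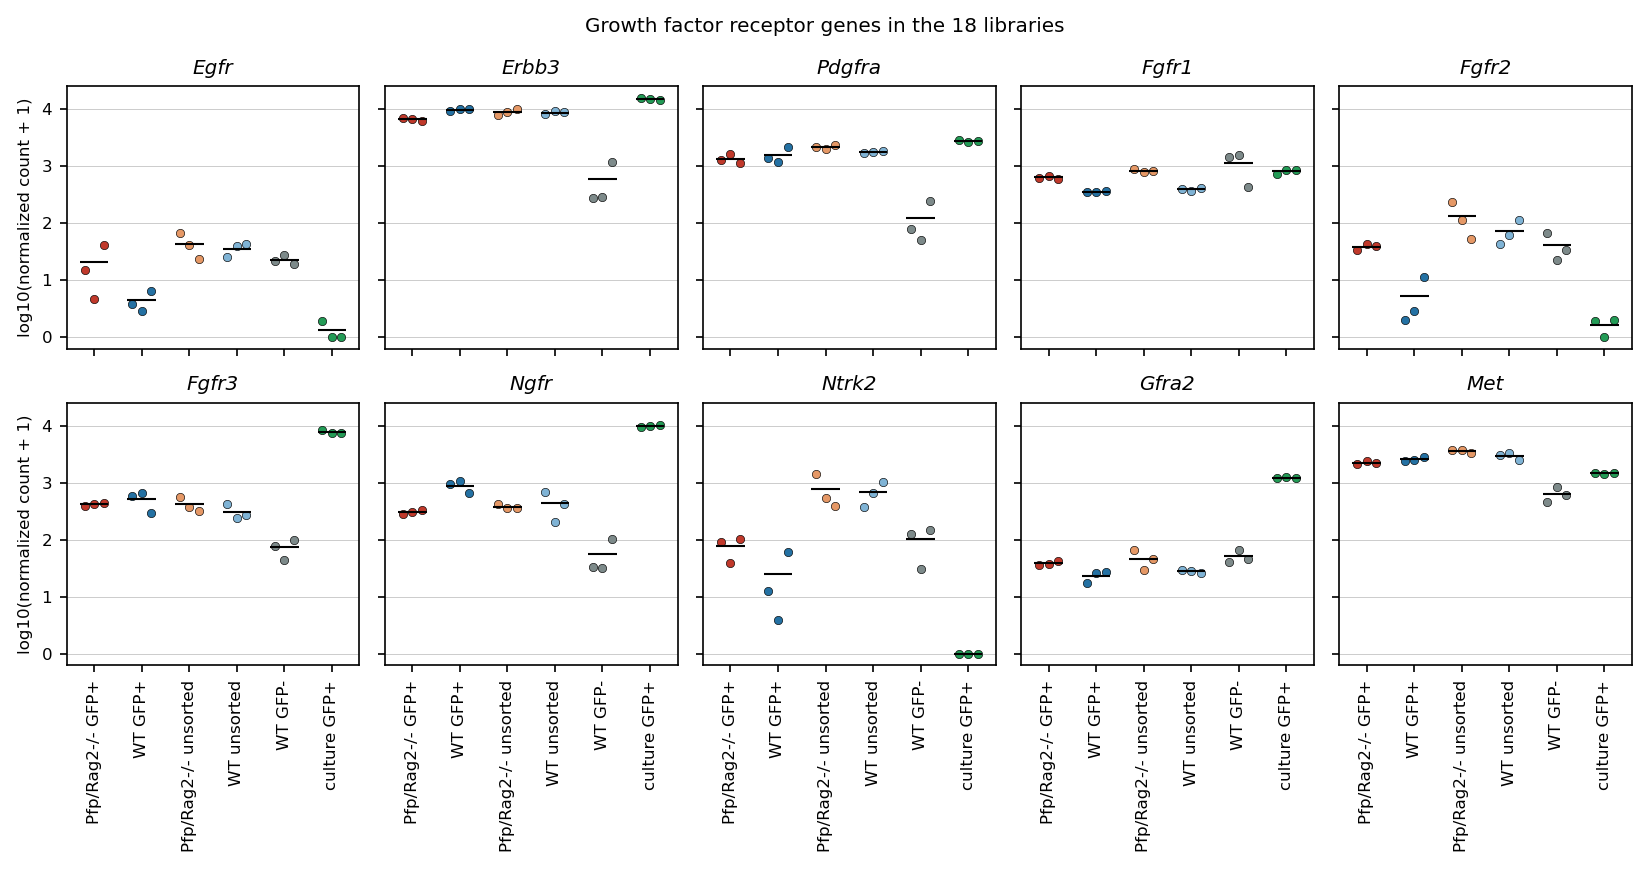
Normalized count of each receptor gene in every library, on a log10(normalized count + 1) axis, by group (3 libraries each); points are libraries and bars are group means. Ngfr, Fgfr3 and Gfra2 are highest in culture, at means of 9877, 7711 and 1209, while Egfr, Fgfr2 and Ntrk2 have means of 0.315, 0.633 and 0 there.

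Per kilobase of exon, which allows genes to be compared, the mean level in GFP+ cells of Pfp/Rag2-/- tumours was highest for Erbb3 at 1101 normalized counts per kb, followed by Met at 291 and Pdgfra at 133. In GFP+ cells of WT tumours Erbb3 led at 1611 per kb, followed by Met at 338 and Ngfr at 256. In culture Ngfr led at 2866 per kb, ahead of Erbb3 at 2425 and Fgfr3 at 1077. At the other end, Egfr had 1.70 per kb in Pfp/Rag2-/- GFP+ cells, 0.303 in WT GFP+ cells and 0.0278 in culture.

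Ngfr, Fgfr3 and Gfra2 had been picked for their low level in tumours, and their values show its size. Ngfr had 279, 303 and 332 normalized counts in GFP+ cells of Pfp/Rag2-/- tumours and 933, 1062 and 656 in those of WT tumours, against 9646, 9926 and 10057 in culture. Culture was thus 32.4-fold above the Pfp/Rag2-/- GFP+ mean and 11.2-fold above the WT GFP+ mean. Every tumour library was below every culture library. Fgfr3 had 395, 417 and 437 normalized counts in GFP+ cells of Pfp/Rag2-/- hosts and 587, 672 and 297 in those of WT hosts, against 8288, 7418 and 7428 in culture, so that culture was 18.5-fold and 14.9-fold higher. Gfra2 had 35.6, 36.7 and 41.4 in GFP+ cells of Pfp/Rag2-/- hosts and 16.3, 25.7 and 25.8 in WT GFP+ cells, against 1208, 1235 and 1185 in culture. Here culture was 31.9-fold and 53.6-fold higher. The 3 genes did not keep 1 order between hosts: Ngfr was nearer to culture in WT hosts and Gfra2 in Pfp/Rag2-/- hosts. Unsorted tumours, which hold the same cells together with host cells, averaged 377 (Pfp/Rag2-/-) and 438 (WT) for Ngfr, 419 and 310.2 for Fgfr3, and 45.4 and 27.2 for Gfra2. These means were also far below culture, but the genes were chosen for a low level in mice, so they are a description and add no support. In bulk RNA, fewer cells carrying a transcript and less transcript per cell cannot be told apart.

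Erbb3, Pdgfra and Fgfr1 were also lower in GFP+ tumour cells than in culture, by smaller folds, and Met was higher. Erbb3 had 7028, 6722 and 6121 normalized counts in GFP+ cells of Pfp/Rag2-/- hosts and 9179, 10128 and 9769.7 in WT GFP+ cells, against 15181, 14573 and 14005 in culture. The 3 groups did not overlap, and culture was 2.20-fold and 1.50-fold higher. Pdgfra had 1288, 1610.1 and 1112 in GFP+ cells of Pfp/Rag2-/- hosts and 1352, 1164 and 2109 in WT GFP+ cells, against 2786, 2628 and 2687 in culture, which was 2.02-fold and 1.75-fold higher. Fgfr1 had 610.0, 676 and 596 in GFP+ cells of Pfp/Rag2-/- hosts and 344, 351 and 365 in WT GFP+ cells, against 732, 859.7 and 830.0 in culture. Culture was 1.29-fold and 2.29-fold higher, and again no libraries of these groups overlapped. Unsorted cells of Pfp/Rag2-/- tumours, at 824 ± 40.7, overlapped culture for Fgfr1, at 807 ± 66.8, while those of WT tumours were lower, at 389 ± 26.7. Met had 2142, 2369.7 and 2201 in GFP+ cells of Pfp/Rag2-/- hosts and 2419, 2494 and 2864 in WT GFP+ cells, against 1477, 1447 and 1458 in culture. Met was thus 1.53-fold and 1.77-fold higher in the tumour cells than in culture, the opposite direction to the other receptors with appreciable counts in culture.

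Egfr, Fgfr2 and Ntrk2 had almost no reads in culture. Culture libraries held 1, 0 and 0 reads of Egfr, 1, 0 and 1 reads of Fgfr2, and 0 reads of Ntrk2. Ntrk2 had 89.5, 38.6 and 102 normalized counts in GFP+ cells of Pfp/Rag2-/- hosts and 11.5, 2.85 and 58.9 in WT GFP+ cells. Set against a floor of 3 reads per culture library (2.84 normalized counts), the means were at least 27.0-fold higher in Pfp/Rag2-/- GFP+ cells and at least 8.60-fold higher in WT GFP+ cells. Fgfr2 had 32.9, 41.3 and 37.8 in GFP+ cells of Pfp/Rag2-/- hosts and 0.958, 1.90 and 10.1 in WT GFP+ cells. Its ratio to culture was 59.0 (95% counting interval 16.01 to 494) in Pfp/Rag2-/- hosts and 6.84 (1.60 to 63.2) in WT hosts. Egfr had 13.7, 3.67 and 40.5 in GFP+ cells of Pfp/Rag2-/- hosts and 2.87, 1.90 and 5.53 in WT GFP+ cells, with ratios to culture of 61.3 (10.6 to 2449) and 10.9 (1.59 to 471). The intervals cover counting error only. All 3 genes had higher means still in unsorted tumours of both hosts, where host brain cells are included, and the sorting results below bear on this.

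**Figure D2:**
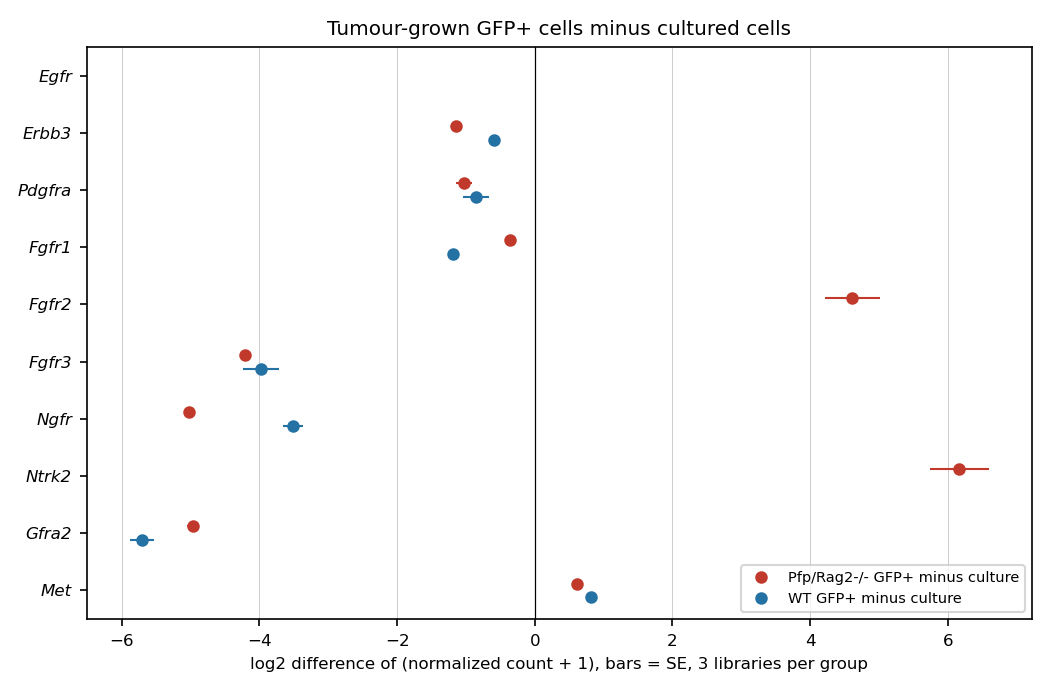
Log2 difference, GFP+ tumour cells minus culture, of log2(normalized count + 1) for the receptor genes in each host (3 libraries per group); bars are standard errors. The choice of genes used these values: Ngfr is at -5.02 in Pfp/Rag2-/- and -3.51 in WT hosts, Fgfr3 at -4.21 and -3.97, Gfra2 at -4.96 and -5.71, and Met above 0 at 0.61 and 0.82.

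Because the choice of genes used this contrast, nothing is read from the share of them that differed. Of all genes tested, 35.1% were higher and 37.1% lower than culture in Pfp/Rag2-/- GFP+ cells, and 30.3% were higher and 35.3% lower in WT GFP+ cells, at a Benjamini-Hochberg adjusted p under 0.05 in limma. On the log2(normalized count + 1) scale Fgfr2 and Ntrk2 were 4.61 and 6.17 above culture in Pfp/Rag2-/- GFP+ cells. In WT GFP+ cells they fell under the minimum level for a fit, and Egfr fell under it in both hosts.

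Between hosts, Fgfr1 was higher and Erbb3 and Ngfr were lower in GFP+ cells of Pfp/Rag2-/- than of WT tumours. Fgfr2, a gene with few reads, had a higher mean in Pfp/Rag2-/- hosts, given as a description for the reason below. The series title names tumour escape under immune pressure, and this comparison sets tumour cells from hosts with and without adaptive immunity side by side. Of all 14807 genes tested, 15.0% were higher and 15.3% lower, against 2 and 2 of the 9 receptor genes that could be tested. The median log2 difference was -0.18 over the 9 receptor genes and 0.02 over all genes. Fgfr2 and Ntrk2 passed the minimum level of 10 normalized counts in 3 libraries only through the Pfp/Rag2-/- libraries, which favours a higher value there, and nothing is read from the count or the median.

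Fgfr1 was higher by 0.83 on the log2 scale (SE 0.08, limma adjusted p = 0.000657), a 1.78-fold difference of means, 627 ± 42.8 in Pfp/Rag2-/- and 353 ± 10.6 in WT GFP+ cells (SD, n = 3 each). Fgfr2 had means of 37.3 ± 4.25 in Pfp/Rag2-/- GFP+ cells and 4.33 ± 5.05 in WT GFP+ cells (log2 3.26, SE 0.64). Its call is not read as a result, since the minimum level favoured this direction. The WT libraries held only 1, 2 and 11 reads of Fgfr2, so the size of that difference is poorly fixed. Erbb3 was lower by log2 -0.55 (SE 0.07, adjusted p = 0.00193), with means of 6623 ± 461 in Pfp/Rag2-/- and 9692 ± 479.6 in WT GFP+ cells. Ngfr was lower by log2 -1.51 (SE 0.18, adjusted p = 0.00158), with means of 305 ± 26.6 and 884 ± 208. The libraries of the 2 hosts did not overlap for Fgfr1, Fgfr2, Erbb3 or Ngfr. The share of all genes without overlap is not reported here for any comparison, so groups that do not overlap are a description throughout. The calls of Fgfr1, Erbb3 and Ngfr held when any single library was left out. With all 18 libraries sharing 1 estimate of the spread, Erbb3 and Fgfr1 were no longer called (adjusted p = 0.337 and 0.0866).

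The other receptors did not pass the test in GFP+ cells. Gfra2 (log2 0.75, adjusted p = 0.0661) and Met (log2 -0.21, adjusted p = 0.0777) had libraries that did not overlap between hosts. DESeq2 on recovered reads called Met (adjusted p = 0.0395). Pdgfra (log2 -0.18, adjusted p = 0.598) and Fgfr3 (log2 -0.23, adjusted p = 0.567) overlapped, and both turned on WT library 3: without it Pdgfra came to log2 0.07 and Fgfr3 to log2 -0.59 (adjusted p = 0.0049, called). Ntrk2, whose direction the minimum level also favoured, was at log2 2.33 (adjusted p = 0.102). It came to an adjusted p of 0.0175 when libraries of the same number were paired and of 0.01 without WT library 3. That library also had more oligodendrocyte precursor and oligodendrocyte marker RNA than WT libraries 1 and 2: its 8 precursor markers summed to 65231 normalized counts, against 46244 and 46638, and its 9 oligodendrocyte markers to 16073, against 9139 and 8506. The cultured line itself carried RNA of both lists, at 35408 to 37653 and 38733 to 40747.

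**Figure D3:**
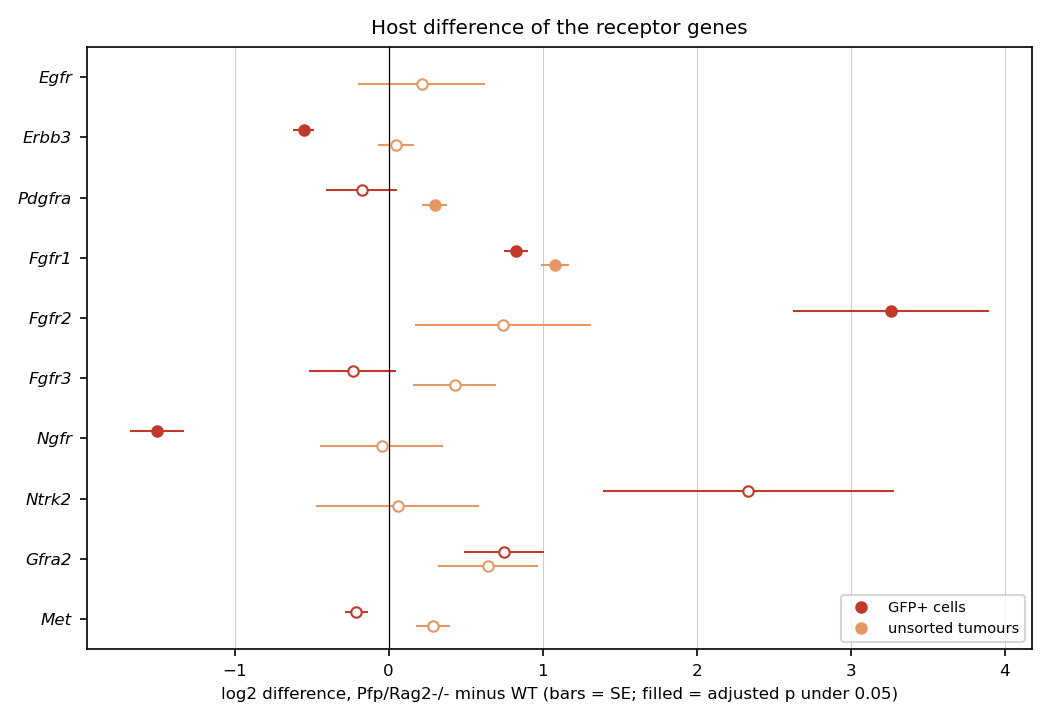
Log2 difference between hosts, Pfp/Rag2-/- minus WT, of the receptor genes in GFP+ cells and in unsorted tumours (3 libraries per group); bars are standard errors and filled points passed the test. Fgfr1 is above 0 in both, at 0.83 and 1.08, while Ngfr is at -1.51 in GFP+ cells and -0.05 in unsorted tumours.

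In unsorted tumours Fgfr1 was again higher in Pfp/Rag2-/- hosts. It had 869, 789.9 and 812 normalized counts in Pfp/Rag2-/- tumours, against 397, 359.9 and 412 in WT tumours, and the groups did not overlap. The log2 difference was 1.08 (SE 0.09, limma adjusted p = 0.000407), called under every alternative run. Pdgfra had 2159.7, 1970.2 and 2326 in Pfp/Rag2-/- tumours, against 1708, 1730.0 and 1802 in WT tumours. Its difference of log2 0.30 (SE 0.08, adjusted p = 0.0313) was lost on leaving out any 1 of Pfp/Rag2-/- library 1 or 3 or WT library 2 or 3 (adjusted p = 0.0957, 0.107, 0.0685 and 0.0701), with no filter on low genes (0.0598) or with all 18 libraries in 1 fit (0.601). The remaining 8 genes did not pass, although Met, whose libraries did not overlap (log2 0.29, adjusted p = 0.0837), did with quantile normalization (0.0455). This stood against a background of 14.8% of all genes higher and 15.1% lower, and the median log2 difference was 0.29 over the 10 genes and 0.05 over all. Erbb3 and Ngfr, lower in GFP+ cells of Pfp/Rag2-/- hosts, had log2 differences of 0.05 and -0.05 in unsorted tumours (adjusted p = 0.796 and 0.94).

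Whether a host difference was itself different between GFP+ cells and unsorted tumours was tested as an interaction. Limma called 0 of the 10 receptors and 0.934% of all genes. An unadjusted limma p under 0.05 was reached by 5 of the 10 receptors and by 3212 of the 16161 genes tested, and nothing is read from that count. DESeq2, whose count over all genes is given in the last section, called Erbb3 (adjusted p = 0.00156) and Met (adjusted p = 0.0176). The nearest by limma was Erbb3, at log2 -0.60 (SE 0.14, adjusted p = 0.0611), followed by Met at -0.50 (SE 0.14, 0.0878) and Ngfr at -1.46 (SE 0.48, 0.132). Leaving out WT unsorted library 1 brought Erbb3 to 0.0442 and Ngfr to 0.0232, leaving out WT unsorted library 2 brought Erbb3 to 0.0488 and Met to 0.0476, and leaving out WT GFP+ library 3 brought Fgfr2 to 0.0419. Over all genes the split was 36 higher and 115 lower as deposited, and 113 and 157 with quantile normalization. The 2 host comparisons thus are not shown to differ for these genes by the limma test on all libraries.

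Genes listed as markers of other cell types also moved between hosts, but the cultured line itself carried RNA of several of these lists. In culture, oligodendrocyte precursor markers summed to between 35408 and 37653 normalized counts, and oligodendrocyte markers to between 38733 and 40747. Pericyte and fibroblast markers summed to 4818 to 5148 there, and macrophage and microglia markers to 179 to 187. Mobp, Ermn and Opalin of the oligodendrocyte list and Kcnj8 of the pericyte list were at 0 in culture. In GFP+ cells, oligodendrocyte precursor markers summed to between 73345 and 82908 normalized counts in Pfp/Rag2-/- hosts and between 46244 and 65231 in WT hosts, with 5 of 8 markers higher and 1 lower. Of 8 tested oligodendrocyte markers 5 were higher, and of 11 tested pericyte and fibroblast markers 6 were higher, with sums of 17687 to 21057 in Pfp/Rag2-/- and 8675 to 10255 in WT hosts. Macrophage and microglia markers summed to between 7486 and 16176 in Pfp/Rag2-/- GFP+ cells and between 7846 and 19622 in WT GFP+ cells. In unsorted tumours they summed to between 12824 and 14386 in Pfp/Rag2-/- hosts and between 43001 and 55392 in WT hosts, with 16 of 17 lower. None of the markers on these 4 lists was at 0 in all libraries of any GFP+ or unsorted group. Their part in the receptor differences was not tested.

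Lists of ligands, related receptors and signalling genes were compared between hosts in GFP+ cells as well, where 15.0% of all genes rose and 15.3% fell. Of 7 tested neurotrophin and GDNF family ligands (8 listed), 1 rose and 2 fell (median log2 0.00). The one that rose, Nrtn, encodes neurturin, the ligand of GFRA2: it averaged 151 ± 49.7 normalized counts in Pfp/Rag2-/- and 36.1 ± 8.04 in WT GFP+ cells (log2 2.02, SE 0.28, limma adjusted p = 0.00298). Of the 17 tested relatives and co-receptors 4 rose and 3 fell (median log2 0.20). Among 19 other receptor tyrosine kinases 4 rose and 3 fell (median log2 0.23): the collagen receptor Ddr1 rose by log2 0.57 (adjusted p = 0.00167) and its relative Ddr2 fell by 0.61 (adjusted p = 0.00355). Of 15 ERK target genes 0 rose and 6 fell (median log2 -0.24), among them Etv1, an ETS transcription factor, with 559 ± 44.2 and 1061 ± 79.0 (log2 -0.92, adjusted p = 0.000646).

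Ligands of the other receptors were mostly not called between hosts in GFP+ cells: 1 rose and 1 fell of 7 EGF and neuregulin ligands (median log2 0.02), 1 fell of 2 PDGF ligands (0.03), 1 rose of 5 FGF ligands (0.06), and 2 rose and 1 fell of 5 genes of HGF and its activation (0.79). Of 34 adaptors and cascade genes 2 rose and 4 fell (median log2 -0.01), and of 16 negative regulators 2 rose and 3 fell (-0.02). Irs1, the insulin receptor adaptor, was among those that fell, by 1.04 on the log2 scale (adjusted p = 0.00512). The calls named for Nrtn, Ddr1, Ddr2, Etv1 and Irs1 held when any single library was left out, but those of Ddr1, Ddr2 and Irs1 were lost with all 18 libraries in 1 fit (limma adjusted p = 0.133, 0.34 and 0.0662).

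In unsorted tumours Gfra1, the co-receptor for GDNF, was higher in Pfp/Rag2-/- than in WT hosts (684 ± 41.8 and 317 ± 43.3, log2 1.12, limma adjusted p = 0.00112). Over all genes 14.8% rose and 15.1% fell in unsorted tumours. Of 21 relatives and co-receptors 3 rose and 0 fell there (median log2 0.40, against 0.05 over all genes). Of 35 adaptors and cascade genes 12 rose and 2 fell (median 0.25), and of 17 negative regulators 5 rose and 1 fell (0.26). Ligand lists were mixed: 2 of 7 EGF and neuregulin ligands rose (0.34), 2 of 4 PDGF ligands fell (-0.80), 0 of 7 FGF ligands were called (0.56), 2 of 7 neurotrophin and GDNF family ligands rose and 1 fell (0.67), and 3 of 6 genes of HGF and its activation fell (-0.72). Of 20 other receptor tyrosine kinases 3 rose and 2 fell (0.17), including Csf1r, the macrophage growth factor receptor, which fell by 1.58 on the log2 scale (adjusted p = 0.00104, and 0.0547 with all 18 libraries in 1 fit) beside the macrophage markers above. Of 15 ERK targets 5 rose and 3 fell (0.23).

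Ntrk2 RNA was far lower in GFP+ than in unsorted cells of Pfp/Rag2-/- tumours. In WT tumours Ntrk2, Egfr and Fgfr2 also had lower values in GFP+ cells, given as a description because of the minimum level. Ntrk2 had 89.5, 38.6 and 102 normalized counts in GFP+ cells of Pfp/Rag2-/- tumours, against 1419.6, 528 and 388 in their unsorted cells, and in WT tumours 11.5, 2.85 and 58.9 in GFP+ cells, against 376, 657 and 1039.7 unsorted. The GFP+ mean was 9.86% of the unsorted mean in Pfp/Rag2-/- and 3.54% in WT tumours, with no overlap. By limma Ntrk2 fell by 3.21 on the log2 scale (SE 0.54, adjusted p = 0.00583) in Pfp/Rag2-/- tumours. Its log2 difference in WT tumours was -5.48 (SE 0.92).

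Egfr had 2.87, 1.90 and 5.53 normalized counts in GFP+ cells of WT tumours, against 24.0, 37.8 and 40.9 unsorted, and the groups did not overlap (log2 -3.04, SE 0.43). Fgfr2 had 0.958, 1.90 and 10.1 in WT GFP+ cells, against 41.5, 60.3 and 111 unsorted (log2 -4.06, SE 0.70). Their GFP+ means were 10.0% and 6.12% of the unsorted means. In Pfp/Rag2-/- tumours Egfr had 13.7, 3.67 and 40.5 in GFP+ cells, against 64.9, 39.9 and 22.5 unsorted, which overlapped (log2 -1.49, adjusted p = 0.193). Fgfr2 had 32.9, 41.3 and 37.8 in GFP+ cells, against 233, 109.6 and 51.4 unsorted, and did not pass by limma (log2 -1.54, adjusted p = 0.0533), though it did by edgeR (0.0447), by DESeq2 (0.00542) and without Pfp/Rag2-/- unsorted library 3 (0.0118). In WT tumours Egfr, Fgfr2 and Ntrk2 passed the minimum level only through the unsorted libraries, which favours a lower value in GFP+ cells. Their values are therefore given, and neither the limma calls of these genes nor their number is read as a result. Without WT unsorted library 3 the differences were log2 -2.90, -3.68 and -5.13, and the calls were lost (adjusted p = 0.0516, 0.0634 and 0.0615), while the number of calls over all genes was 356, against 2559 with all libraries.

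Sums of astrocyte and neuron markers were also lower after sorting. The 10 astrocyte markers summed to between 5948 and 6123 normalized counts in Pfp/Rag2-/- GFP+ cells, against 10942 to 17708 unsorted, and to between 6767 and 8275 in WT GFP+ cells, against 12703 to 15686 unsorted. Of the 10, 8 fell in Pfp/Rag2-/- and 7 in WT tumours. Neuron markers summed to between 741 and 799 in Pfp/Rag2-/- GFP+ cells, against 2152 to 6956 unsorted, and to between 444 and 665 in WT GFP+ cells, against 1207 to 2110 unsorted, with 7 of 9 lower in each host. None of these markers was at 0 in all 3 libraries except Gad2 in WT GFP+ cells. Unsorted library 1 of Pfp/Rag2-/- tumours was highest for Ntrk2, Fgfr2 and Egfr and for both marker sums, and WT unsorted library 3 was highest in its group for all of these as well. In culture, where Ntrk2 had 0 reads, Gjb6 and Slc39a12 were at 0, but the astrocyte markers summed to between 10047 and 10400, above both GFP+ groups.

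Endothelial markers fell in 2 of 12 in Pfp/Rag2-/- tumours and in 11 of 12 in WT tumours, with sums of 2892 to 4440.0 in Pfp/Rag2-/- GFP+ cells, against 4271 to 6572 unsorted, and of 1806 to 2907 in WT GFP+ cells, against 4929 to 6031 unsorted. Of 17 macrophage and microglia markers 1 rose and 4 fell in Pfp/Rag2-/- tumours and 14 fell in WT tumours, with the sums given above. Of 12 tested pericyte and fibroblast markers 1 rose and 1 fell in Pfp/Rag2-/- tumours, and 1 rose and 7 fell in WT tumours. The sums of that list ran the other way, at 17687 to 21057 in Pfp/Rag2-/- GFP+ cells, against 12028 to 15581 unsorted, and at 8675 to 10255 in WT GFP+ cells, against 8297 to 8439 unsorted. The part of any of these cell types in the levels of the receptors was not tested.

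**Figure D4:**
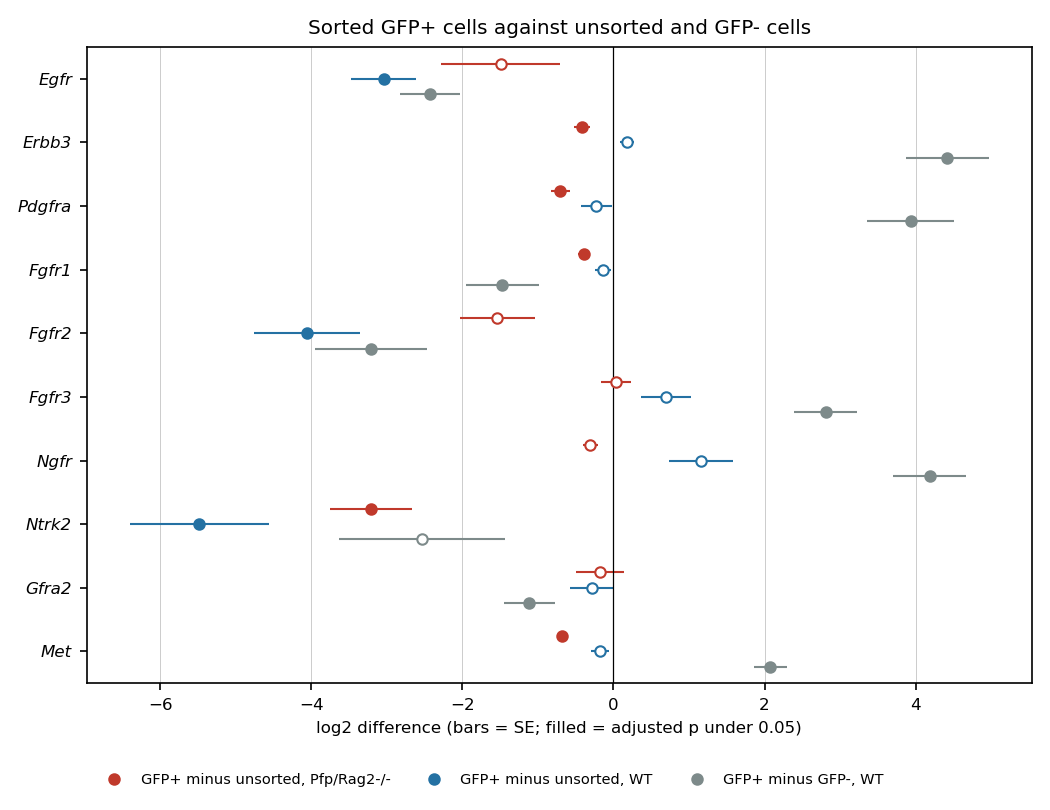
Log2 difference of the receptor genes, GFP+ minus unsorted cells in Pfp/Rag2-/- and in WT tumours and GFP+ minus GFP- cells in WT tumours (3 libraries per group); bars are standard errors and filled points passed the test. Ntrk2 is lowest against unsorted cells, at -3.21 and -5.48, and Erbb3, Pdgfra, Fgfr3, Ngfr and Met are above 0 against GFP- cells, at 4.42, 3.93, 2.81, 4.18 and 2.08.

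Receptors abundant in the tumour cells moved less on sorting. In Pfp/Rag2-/- tumours Met fell by 0.68 on the log2 scale (SE 0.06, limma adjusted p = 0.000973), Pdgfra by 0.70 (SE 0.13, 0.00879), Fgfr1 by 0.39 (SE 0.07, 0.00699) and Erbb3 by 0.42 (SE 0.10, 0.0235). GFP+ means were 62.6%, 62.1%, 76.2% and 74.6% of the unsorted means. With all 18 libraries in 1 fit the calls of Pdgfra, Fgfr1 and Erbb3 were lost (adjusted p = 0.253, 0.469 and 0.518), while those of Met and Ntrk2 were kept (0.00856 and 0.0153). The Erbb3 call was also lost without GFP+ library 2 or 3 (adjusted p = 0.0663 and 0.0848) or unsorted library 2 (0.0735). In WT tumours none of these 4 passed (log2 -0.18, -0.23, -0.14 and 0.18), although Pdgfra did without WT GFP+ library 3 (log2 -0.48, adjusted p = 0.0309), as did Fgfr3 (log2 1.06, adjusted p = 0.0412). Ngfr was at log2 -0.30 (adjusted p = 0.0606) in Pfp/Rag2-/- and 1.16 (0.102) in WT tumours. In WT tumours its unsorted libraries held 696, 202 and 416 normalized counts, and without the highest of these, library 1, it was called (adjusted p = 0.0268), as it was by DESeq2 (0.0392) and with all 18 libraries in 1 fit (0.0491). Fgfr3 in Pfp/Rag2-/- tumours (log2 0.03) and Gfra2 in both hosts (-0.18 and -0.29) did not pass, and the sign of Gfra2 turned under quantile normalization.

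Of all genes 11.1% were higher and 19.1% lower in GFP+ than in unsorted cells of Pfp/Rag2-/- tumours, and 6.46% were higher and 10.3% lower in WT tumours, against 5 of 10 and 3 of 10 receptors lower and 0 higher; the 3 are those whose direction the minimum level favours. The median log2 difference was -0.55 over the 10 receptors and -0.06 over all genes in Pfp/Rag2-/- tumours, and -0.20 and -0.05 in WT tumours. The split of calls depended on scaling: in Pfp/Rag2-/- tumours 1699 genes were higher and 2926 lower as deposited, 2352 and 2276 with quantile normalization and 2248 and 2247 with TMM factors. In WT tumours they were 987 and 1572 as deposited and 1448 and 1366 with quantile normalization.

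Among ERK target genes, 6 of 15 rose on sorting in each host, with 3 lower in Pfp/Rag2-/- and 0 in WT tumours (median log2 0.07 and 0.54). Egr1, an immediate early transcription factor, averaged 14650.1 ± 741 normalized counts in Pfp/Rag2-/- GFP+ cells and 2772 ± 438 unsorted (log2 2.41, limma adjusted p = 0.000104), and 15484 ± 3687 in WT GFP+ cells and 1157 ± 147 unsorted (log2 3.72, adjusted p = 0.000743). It was also 17755 ± 1998 in the sorted GFP- cells and 1099 ± 48.01 in culture. Of 35 adaptors and cascade genes, 3 rose and 14 fell in Pfp/Rag2-/- tumours (median -0.18), and of 34 in WT tumours 5 rose and 0 fell (0.08). Of 17 negative regulators 0 rose and 9 fell in Pfp/Rag2-/- tumours (-0.26), and of 16 in WT tumours 2 rose and 1 fell (0.01).

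Within WT tumours, GFP+ cells carried far more Erbb3, Ngfr, Pdgfra, Fgfr3 and Met than GFP- cells, and less Egfr, Fgfr1, Fgfr2 and Gfra2. Erbb3 had 9179, 10128 and 9769.7 normalized counts in GFP+ cells, against 274, 283 and 1186 in GFP- cells, 16.7-fold apart by means. Ngfr had 933, 1062 and 656, against 32.4, 30.8 and 101, and Pdgfra had 1352, 1164 and 2109, against 76.5, 49.3 and 238. These 3 genes did not overlap between fractions and GFP- library 3 was the highest of its group for each. By limma Erbb3 rose by log2 4.42 (SE 0.55, adjusted p = 0.000472), Ngfr by 4.18 (SE 0.48, 0.000346) and Pdgfra by 3.93 (SE 0.57, 0.000894). Fgfr3 averaged 518 ± 197 in GFP+ and 72.8 ± 27.4 in GFP- cells (log2 2.81, adjusted p = 0.000997), and Met 2592 ± 238 and 631 ± 190.4 (log2 2.08, adjusted p = 0.000252).

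Fgfr1 had 344, 351 and 365 normalized counts in GFP+ cells, against 1430.2, 1527 and 429 in GFP- cells. GFP- library 3 was close to the GFP+ libraries, and the difference of log2 -1.47 (SE 0.48, limma adjusted p = 0.0275) was lost without any 1 of GFP+ libraries 1, 2 and 3 (0.0596, 0.0666 and 0.0673) or GFP- libraries 1 and 2 (0.095 and 0.0874). Egfr and Fgfr2, like Ntrk2, passed the minimum level only through the GFP- libraries, which favours a lower value in GFP+ cells. The calls of Egfr and Fgfr2 are therefore not read as a result, and their values are a description. Egfr had 20.6, 26.2 and 18.4 in GFP- cells, above all GFP+ libraries (log2 -2.43, SE 0.40), and Fgfr2 had 64.7, 21.6 and 32.9 (log2 -3.21, SE 0.74). Gfra2 averaged 22.6 ± 5.45 in GFP+ and 50.2 ± 14.1 in GFP- cells (log2 -1.11, SE 0.34, adjusted p = 0.0208), a call lost with quantile normalization (log2 -0.49, adjusted p = 0.333) and without GFP+ library 1 (0.0692) or GFP- library 2 (0.0571). Ntrk2 was at 125, 29.3 and 146 in GFP- cells and did not pass (log2 -2.53, adjusted p = 0.072), though it did without WT GFP+ library 3 (0.016) or GFP- library 2 (0.0477) and with all 18 libraries in 1 fit (0.0105).

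The background in this comparison was large, with 33.7% of all genes higher and 42.7% lower in GFP+ cells, so 5 of 10 higher and 4 of 10 lower, among these Egfr and Fgfr2, is not read as a result. Scaling shifted the whole comparison: the median of all genes was log2 -0.19 as deposited, and its shift against that was 0.43 with quantile normalization and 0.12 with TMM factors, which gave 7033 higher and 5401 lower calls with quantile normalization, against 5412 and 6871 as deposited. Macrophage and microglia markers summed to between 7846 and 19622 in WT GFP+ cells, against 571488 to 762729 in GFP- cells, with 16 of 17 lower. All 8 oligodendrocyte precursor markers were higher, with sums of 46244 to 65231 in GFP+ and 1046 to 7421 in GFP- cells. Astrocyte markers summed to between 6767 and 8275 in GFP+ and 1086 and 3212 in GFP- cells. GFP- library 3 had the highest precursor and astrocyte sums of its group, and its part in the GFP- levels of Erbb3, Ngfr and Pdgfra was not tested.

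Ligands and receptors lay in different fractions for some families. Genes low in 1 fraction passed the minimum level through the other, so the list counts here are descriptions. Of 5 tested neurotrophin and GDNF family ligands all 5 were higher in GFP+ cells (median log2 4.91, against -0.19 over all genes). Gdnf averaged 945 ± 237 normalized counts in GFP+ and 34.97 ± 25.7 in GFP- cells, Artn (artemin) 289 ± 21.9 and 14.9 ± 18.1, Bdnf 110.2 ± 5.07 and 3.20 ± 2.93, and Nrtn 36.1 ± 8.04 and 5.51 ± 4.33. The GFP+ cells thus held more RNA of both Ngfr and Bdnf, the gene of a ligand of NGFR, than GFP- cells. Ret, the kinase through which GFRA2 and GFRA1 signal, had 0.958, 0 and 1.84 in GFP+ cells, against 63.3, 35.4 and 23.7 in GFP- cells.

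By contrast, HGF, the ligand of MET, was a transcript of the GFP- fraction: Hgf had 78.5, 22.8 and 34.99 normalized counts in GFP+ cells, against 1626, 1544 and 1529 in GFP- cells (log2 -5.26, SE 0.42, limma adjusted p = 9.33e-05). Of the 7 genes of HGF and its activation 1 rose and 6 fell (median log2 -5.26), including Spint1, an inhibitor of the HGF activator, at log2 -6.52. Of 3 tested PDGF ligands 2 fell (median -5.64): Pdgfb had 78.5, 30.4 and 72.8 in GFP+ cells, against 4070.1, 1742 and 3246 in GFP- cells, while Pdgfa averaged 732 ± 109.8 and 946 ± 188 and was not called. Neuregulin 1, a ligand of ERBB3, had 60.3, 2.85 and 1.84 in GFP+ cells, against 1516, 2973 and 163 in GFP- cells (Nrg1, log2 -6.69, SE 1.50). It passed the minimum level through the GFP- libraries, so these values are a description. Of 7 EGF and neuregulin ligands 1 rose and 4 fell (median -2.19). The one that rose was Tgfa, an EGFR ligand, at 1901 ± 28.0 in GFP+ and 330.0 ± 102 in GFP- cells (log2 2.57, adjusted p = 0.000114), and Areg, another, fell by 5.54 on the log2 scale. Of 5 tested FGF ligands 1 rose and 1 fell (0.58).

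**Figure D5:**
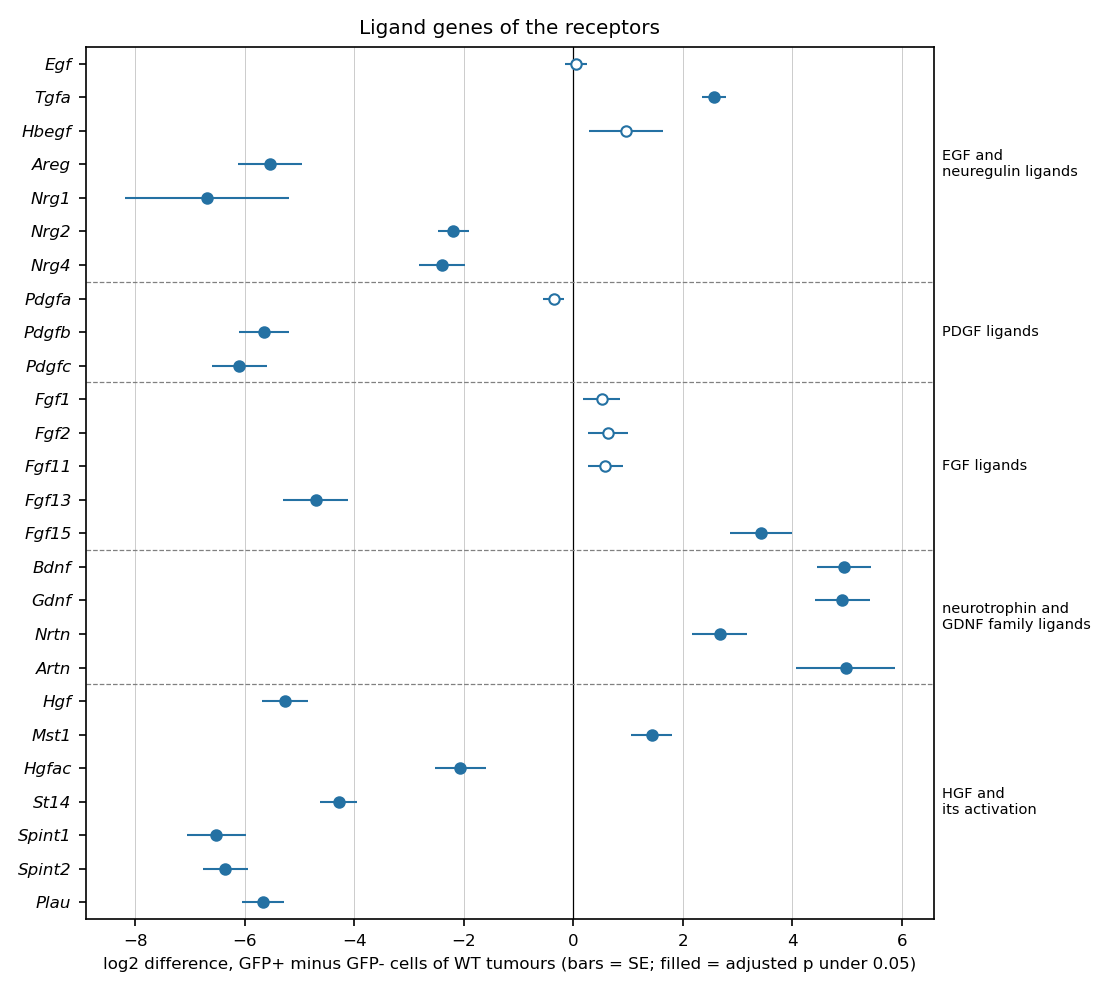
Log2 difference, GFP+ minus GFP- cells of WT tumours, of ligand genes by family (3 libraries per group); bars are standard errors and filled points passed the test. Bdnf, Gdnf, Nrtn and Artn lie above 0, and Hgf (-5.26), Pdgfb (-5.64) and Nrg1 (-6.69) lie below it.

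Among partners of the receptors, Erbb2, with which ERBB3 signals, averaged 576 ± 85.7 normalized counts in GFP+ and 40.97 ± 30.6 in GFP- cells of WT tumours (log2 4.00, limma adjusted p = 0.000388), and Fgfrl1, an FGF receptor without a kinase, 9186 ± 278 and 463 ± 355 (log2 4.56, adjusted p = 0.000221). In all, 7 of 17 relatives and co-receptors rose and 5 fell (median -0.27), 8 of 18 other receptor tyrosine kinases rose and 8 fell (0.43), 7 of 34 adaptors and cascade genes rose and 17 fell (-0.29), 5 of 17 negative regulators rose and 8 fell (-0.17), and 10 of 15 ERK targets rose and 3 fell (1.54). Csf1r fell by 6.37 on the log2 scale, with the macrophage markers. The calls of Tgfa, Nrg1, Areg, Pdgfb, Artn, Bdnf, Spint1, Fgfrl1, Erbb2 and Csf1r held when any single library was left out.

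Against culture, many ligand genes were lower in the tumour cells, as were many genes of any kind. Over all genes 35.1% rose and 37.1% fell in Pfp/Rag2-/- GFP+ cells, and 30.3% rose and 35.3% fell in WT GFP+ cells. Of the tested FGF ligands, 1 rose and 4 fell of 6 in Pfp/Rag2-/- GFP+ cells and 0 rose and 4 fell of 5 in WT GFP+ cells (median log2 -1.76 in each). Fgf2, a ligand of all 3 FGF receptors, averaged 93.9 ± 3.95 and 93.0 ± 19.6 normalized counts, against 312 ± 15.1 in culture (log2 -1.72, limma adjusted p = 4.59e-07, and -1.76, 2.68e-05). Of 6 neurotrophin and GDNF family ligands 0 rose and 4 fell in Pfp/Rag2-/- (median -0.49) and 1 rose and 5 fell in WT hosts (-0.73), among them Bdnf, at log2 -0.84 and -0.91. Of the EGF and neuregulin ligands 1 rose and 5 fell of 6 (-1.08), and 2 rose and 4 fell of 7 (-0.72), with Tgfa at log2 -0.52 and -0.72. Of 2 PDGF ligands 1 rose and 1 fell in each host (0.36 and 0.33). Of the 7 listed genes of HGF and its activation, 4 could be tested in Pfp/Rag2-/- and 5 in WT hosts, and all of these rose (2.87 and 3.01). Genes low in culture passed the minimum level through the tumour libraries, which favours a rise, and genes low in tumour cells passed through culture. The list counts against culture are therefore descriptions. Macrophage and microglia markers summed to between 7486 and 16176 in Pfp/Rag2-/- and between 7846 and 19622 in WT GFP+ cells, against 179 to 187 in culture, where 6 of 17 were at 0 (Aif1, Itgam, Adgre1, C1qb, C1qc and Tyrobp). Their part in these differences was not tested. Both of these comparisons use the same 3 culture libraries.

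Relatives and co-receptors fell more often than they rose, 11 of 18 against 3 in Pfp/Rag2-/- GFP+ cells (median log2 -1.05) and 13 of 17 against 2 in WT GFP+ cells (-1.20). Ntrk3, the receptor of neurotrophin-3, averaged 37.9 ± 15.9 and 60.9 ± 16.8 normalized counts, against 272 ± 12.1 in culture (log2 -2.89 and -2.18). In contrast the proteoglycan Sdc3 rose by log2 3.80 and 3.56 (limma adjusted p = 8e-10 and 1.78e-07). Among other receptor tyrosine kinases 9 rose and 5 fell of 18 (0.24), and 7 rose and 6 fell of 16 (0.01). Kit, the stem cell factor receptor, averaged 5042 ± 722 in WT GFP+ cells and 456 ± 47.2 in culture (log2 3.46, adjusted p = 1.05e-07). Adaptors and cascade genes fell in 22 of 34 and rose in 4 (-0.29), and in WT hosts fell in 22 of 34 and rose in 3 (-0.27). Negative regulators fell in 8 of 16 and rose in 4 (-0.23), and fell in 8 of 16 and rose in 2 (-0.18), and ERK targets rose in 5 and fell in 9 of 15 (-0.26), and rose in 6 and fell in 4 of 15 (0.23). The medians over all genes were -0.01 and -0.04.

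Ordered by group means, culture was the highest group for Ngfr, Fgfr3, Gfra2, Erbb3 and Pdgfra, and its libraries did not overlap the next group. For Ngfr the next groups, WT GFP+, WT unsorted and Pfp/Rag2-/- unsorted cells, overlapped in turn, and the libraries of Pfp/Rag2-/- GFP+ cells (279 to 332) lay below those of Pfp/Rag2-/- unsorted cells but within the WT unsorted range (202 to 696). GFP- cells alone (30.8 to 101) lay below all others. For Fgfr3 all tumour groups other than GFP- cells overlapped. For Gfra2, GFP- cells and both Pfp/Rag2-/- groups overlapped and had higher means than the overlapping WT unsorted and WT GFP+ groups, but the lowest Pfp/Rag2-/- unsorted library (28.1) lay within the WT unsorted range (25.3 to 28.6). Fgfr1 was highest by mean in GFP- cells, Pfp/Rag2-/- unsorted tumours and culture, which overlapped, then in Pfp/Rag2-/- GFP+ cells, which lay within the wide GFP- range (429 to 1527), then in WT unsorted and WT GFP+ cells, which overlapped. Met was highest in Pfp/Rag2-/- unsorted tumours, at 3576 ± 179, and lowest in GFP- cells, at 631 ± 190.4.

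Genes whose log2 level followed the 3 culture-high receptors most closely over the 18 libraries were sought among 12981 genes. For Ngfr they were Mest (Pearson r = 0.990), Cavin1 (0.985) and Cct7 (0.982). For Fgfr3 they were Entpd2 (0.986), Lgi4 (0.985) and Timp3 (0.983), and for Gfra2 they were Slc16a13 (0.970), Gpc1 (0.968) and Abcb4 (0.966). Mest averaged 407 normalized counts in Pfp/Rag2-/- and 726 in WT GFP+ cells, against 6277 in culture, and Timp3 1164 and 1551, against 15171. Gpc1, a heparan sulphate proteoglycan, averaged 941 and 636, against 2865. The libraries fall into groups and share a size factor per library across genes, so these values describe likeness only.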

How the data were processed

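The deposited table gives, per gene and library, a signal that is a normalized count: per the submitters' processing notes, the authors aligned reads with STAR 2.5.2b to GRCm38 and used DESeq2; the sources used here do not give the counter, annotation or strand setting. All values came out as whole reads (within 0.05 reads) after multiplying each deposited column by 1 size factor, so read counts were recovered. Symbols came from the GENCODE M21 annotation of the reference (48435 of 48795 genes named). Since the table held normalized counts and not raw ones, the planned test for such values was used: limma 3.58.1 (R 4.3.3; lmFit, eBayes with trend) on log2(normalized count + 1), for genes at 10 or more in at least 3 of the libraries compared, Benjamini-Hochberg adjusted over all genes tested, called under 0.05. The log2 scale with a pseudocount understates changes of low genes. Alternatives were edgeR 4.0.16 and DESeq2 1.42.0 on recovered reads, TMM and quantile scaling, a pseudocount of 10, filters at 50 or none, all 18 libraries in 1 fit, pairing by replicate number and leaving out each library. The limma script was tested on simulated data. Same-numbered GFP+ libraries of the 2 hosts deviated together for numbers 1 and 2 (r = 0.616 and 0.483). Pfp/Rag2-/- library 3 was closer to a WT library of another number (r = 0.443) than to WT library 3 (0.102). Pairing by number came from these data and not from the labels, and the main tests did not use it. The members and lists were chosen with earlier results of these data known. Named list genes are up to 2 highest and 2 lowest called genes per list with a mean of at least 100, plus ligands or partners that stand beside a result. No column was left unmapped. Protein sequences were not used here. Some list genes enter the counts and are not reported here by name.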

Additional observations from a re-analysis of the deposited data

Results flagged for a closer look

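A group of 4 genes of the signalling lists had a host difference (Pfp/Rag2-/- minus WT) that differed between GFP+ cells and unsorted tumours by limma's test of the interaction, adjusted over all genes. Irs1, an adaptor of the insulin and IGF1 receptors, differed by log2 -1.66 (SE 0.24, adjusted p = 0.0247): it averaged 265 and 549.7 normalized counts in GFP+ cells of Pfp/Rag2-/- and WT hosts, and 362 and 238 in their unsorted tumours. Spred2, an inhibitor of RAS to ERK signalling, differed by log2 -0.53 (SE 0.08, adjusted p = 0.0247), with host differences of log2 0.08 in GFP+ cells and 0.61 in unsorted tumours. Dusp4, a phosphatase of ERK, differed by log2 -1.11 (SE 0.20, adjusted p = 0.0328), with host differences of -0.10 and 1.01. Egr1 differed by log2 -1.31 (SE 0.24, adjusted p = 0.0381), with host differences of -0.05 and 1.26. Each of the 4 was lost when most single libraries were left out, with adjusted p-values of up to 0.0892 for Irs1 and Spred2, 0.102 for Dusp4 and 0.116 for Egr1, all in runs that left out WT GFP+ library 2. The sorted fractions had the higher Egr1 levels given above.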

How the results depend on the processing

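Of 1186 values of the receptor genes under alternatives (75 results), 1095 were the same, 26 lost the call, 24 gained it, 19 turned direction and 22 moved. In tested comparisons, the same meant the same direction and side of the threshold. Against culture, where no test was read, it meant a log2 difference changed by less than limma's SD between libraries. A larger change in the same direction was counted as moved. Of 2645 values of called list genes, an alternative added after seeing the data, 2338 were kept, 307 lost the call and 0 turned. Counts of called genes were 4497 for the host effect in GFP+ cells, 4620 for that in unsorted tumours, 4625 and 2559 for sorting in Pfp/Rag2-/- and WT tumours, 12283 for GFP+ against GFP- cells and 151 for the interaction. With all 18 libraries in 1 fit they were 2971 (2 receptors) for the host effect in GFP+ cells, 2686 (2 receptors) and 4430 for sorting in Pfp/Rag2-/- and WT tumours, and 34 for the interaction, and 1 receptor was called between hosts in unsorted tumours. With no filter that count was also 1 and the interaction had 61 genes; with the filter at 50 sorting in WT tumours had 1619 genes (1 receptor) and the interaction 298. The interaction had 270 genes with quantile normalization, 77 with TMM factors, 70 with edgeR and 1216 (2 receptors) with DESeq2. Without both GFP+ libraries numbered 1 the host effect had 2340 genes and the interaction 0. Leaving out single libraries gave 2522 to 5532 genes for the host effect in GFP+ cells, 2280 to 6142 in unsorted tumours (1 to 2 receptors), 2928 to 4764 and 356 to 3323 for sorting in Pfp/Rag2-/- and WT tumours (0 to 5 receptors in WT), and 0 to 1105 for the interaction (0 to 2 receptors).

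Directions that turned belonged to uncalled values. Gfra2 came to log2 0.34 and 0.32 for sorting in Pfp/Rag2-/- and WT tumours and -0.0084 for the interaction under quantile normalization, and to -0.059 for the interaction without both GFP+ libraries numbered 1. Over single libraries left out, Pdgfra ranged from -0.35 to 0.074 between hosts in GFP+ cells. Between hosts in unsorted tumours Egfr ranged from -0.15 to 0.59, Erbb3 from -0.050 to 0.15, Ngfr from -0.52 to 0.37 and Ntrk2 from -0.49 to 0.44. For sorting in Pfp/Rag2-/- tumours Fgfr3 ranged from -0.14 to 0.27 and Gfra2 from -0.48 to 0.10, and for the interaction Gfra2 ranged from -0.19 to 0.39. The cause of these changes was not tested. With the replicate block in limma, Erbb3 came to adjusted p = 0.0536 for sorting in Pfp/Rag2-/- tumours and Ntrk2 to 0.00811 for GFP+ against GFP- cells. Same-numbered libraries had r = 0.132, 0.163 and -0.035 in the first comparison and 0.212, 0.068 and 0.320 in the second. In the second, the highest r with other numbers was 0.180, 0.035 and -0.112. The labels do not say whether these libraries are paired. Apart from these 2 results and Ntrk2 between hosts in GFP+ cells, the block changed no call of a receptor gene. Genes with few reads, such as Egfr, Fgfr2 and Ntrk2 in GFP+ cells, are limited by depth.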
